A study of Mus musculus with 10 samples.

Results

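The genes described here are 9 rows of the count table, of 14995 genes in all: Prg4, Comp, Cilp, Cilp2, Chad, Clec3a, Acan, Cytl1 and Sox9. They were chosen by symbol as cartilage genes, selected on their measured levels in bone marrow against skin in these same libraries, so those levels are a description and carry no test. The study measured RNA by bulk sequencing of amplified cDNA in 10 libraries of freshly sorted mouse cells. Bone marrow mesenchymal stem cells (MSC; 4 libraries) were Sca1+CD51+ cells of C57BL/6 mice aged 8 to 10 weeks. Skin Ebf2+ cells (3 libraries) and skin Ebf2- cells carrying CD140a and Sca1 (the PαS phenotype; 3 libraries) came from the dorsal skin of FVB/N mice aged 8 to 12 weeks. No treatment is labelled, and all 3 groups were sorted from cells lacking CD45, TER119 and CD31. Tissue, strain and sorting gate changed together between bone marrow and skin, so their parts in any difference cannot be told apart. The series states 3 mice for the skin cells and 4 mice for the marrow cells.

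Cartilage is made by chondrocytes, which surround themselves with a matrix of collagen fibrils and large proteoglycans. SOX9 is the transcription factor that specifies chondrocytes and drives many of their matrix genes. Joint surfaces, tendons and ligaments share a part of this gene set, among it lubricin and cartilage oligomeric matrix protein. Sca1+CD51+ marrow cells belong to the stroma that can form bone, cartilage and fat.

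Promoter sequence was available for 5 of the 9 genes (Chad, Cytl1, Cilp, Cilp2 and Acan). The stretches of 250 bases that end at the start site are shown for 4 of them: Cilp, which was abundant in skin, and Chad, Cilp2 and Cytl1, which were near 0 there. They come from RefSeq (GRCm38.p6) and run 5′ to 3′ on the strand of the gene, with the letters TATANA (N is any base) in capitals.
Chad: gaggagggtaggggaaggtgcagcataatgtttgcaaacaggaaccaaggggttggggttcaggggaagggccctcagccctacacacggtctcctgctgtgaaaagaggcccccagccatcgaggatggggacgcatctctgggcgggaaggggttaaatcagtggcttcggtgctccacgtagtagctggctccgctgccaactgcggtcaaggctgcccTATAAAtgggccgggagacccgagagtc
Cilp: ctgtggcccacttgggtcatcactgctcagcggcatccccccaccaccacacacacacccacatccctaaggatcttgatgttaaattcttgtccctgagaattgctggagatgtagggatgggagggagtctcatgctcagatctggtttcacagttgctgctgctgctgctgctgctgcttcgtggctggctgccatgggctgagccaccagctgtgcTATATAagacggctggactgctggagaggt
Cilp2: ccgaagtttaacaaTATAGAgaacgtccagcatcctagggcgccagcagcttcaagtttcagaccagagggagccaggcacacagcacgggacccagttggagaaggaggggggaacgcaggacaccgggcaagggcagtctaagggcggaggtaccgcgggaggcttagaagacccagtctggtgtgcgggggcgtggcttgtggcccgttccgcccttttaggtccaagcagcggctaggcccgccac
Cytl1: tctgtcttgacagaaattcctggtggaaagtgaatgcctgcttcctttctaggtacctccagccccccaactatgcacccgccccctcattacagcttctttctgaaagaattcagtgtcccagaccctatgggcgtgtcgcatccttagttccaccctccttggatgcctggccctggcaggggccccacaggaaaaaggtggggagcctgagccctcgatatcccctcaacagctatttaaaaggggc
The Chad stretch is chr11:94564797-94565046 (plus strand) and the Cilp stretch is chr9:65264930-65265179 (plus strand). The Cilp2 stretch is chr8:69887393-69887642 (minus strand) and the Cytl1 stretch is chr5:37735269-37735518 (plus strand). TATANA, searched on the gene's strand, occurred in 3 of the 5 promoters and in 16.4% of 32851 promoters of the same length. It began 28 bases before the start site in Chad and 30 bases before it in Cilp, but 236 bases before it in Cilp2. The letters ACAAAG or ACAATG, searched on both strands as the core that SOX proteins can bind, were in 0 of the 5 and in 25.2% of all promoters. A match of letters is a description and no site, and a missing match says nothing about the factor.

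The libraries held between 18.1 M and 39.4 M counts for bone marrow, 9.83 M and 13.0 M for skin Ebf2+, and 11.6 M and 14.1 M for skin Ebf2- cells. The labels credit bone marrow 1 to 3, but not bone marrow 4, to an earlier study. Bone marrow 1 and 4 nearly coincided: a chi-square of their counts per degree of freedom was 3.19, against 107 to 580 for every other pair within a group. This is above pure sampling noise, and they were kept as 2 libraries. Preparations of 1 RNA would also exceed that noise, and whether these libraries share a source was not tested. Marrow means, SDs and tests with n = 4 may therefore rest on 3 independent samples, and ratios and calls with their counts summed as 1 library are given below. The RNAs of both markers of the marrow sort were present in marrow. Ly6a, which encodes Sca1, had 535 to 1233 CPM (counts-per-million, TMM scaled), and Itgav, which encodes CD51, had 163 to 249 CPM. Pdgfra, with 717.8 to 1862 CPM in marrow, encodes CD140a, which is given for the skin Ebf2- sort and not for the marrow sort. Ebf2 RNA had 141 to 338 CPM in bone marrow, 156 to 318 CPM among skin Ebf2+ and 46.99 to 73.6 CPM among skin Ebf2- libraries. Ptprc, which encodes CD45, stayed at or under 0.391 CPM in marrow, and in skin reached 62.0 CPM in skin Ebf2- 2. Summed leukocyte markers (5 of 5 measured) were highest in that library too, at 1135 CPM. Pecam1, which encodes CD31, was higher than Ptprc in marrow, with 5.39, 6.36, 1.95 and 3.55 CPM in bone marrow 1 to 4. Among the skin libraries Pecam1 peaked at 20.9 CPM, in skin Ebf2+ 3, and was at most 2.97 CPM elsewhere.

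Every bone marrow library lay above all 6 skin libraries for 8 of the 9 genes, the exception being Cilp. Over all genes tested, 4.27% had this order, and since the genes were listed for it, nothing is read from the count. Against skin Ebf2+ cells alone all 9 were free of overlap (7.66% of all genes), and against skin Ebf2- cells 8 of 9 (9.24%). Together the 9 genes took 0.763, 1.77, 3.48 and 0.791% of the counts of bone marrow 1 to 4. Their share was 0.0206 to 0.0790% in skin Ebf2+ and 0.0738 to 0.191% in skin Ebf2- cells. In bulk RNA, fewer cells that carry a transcript and less of it in each cell cannot be told apart. No separate cultures or repeat sorts are labelled beyond the numbered libraries, so spreads are those between libraries and may be in part technical.

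**Figure D1:**
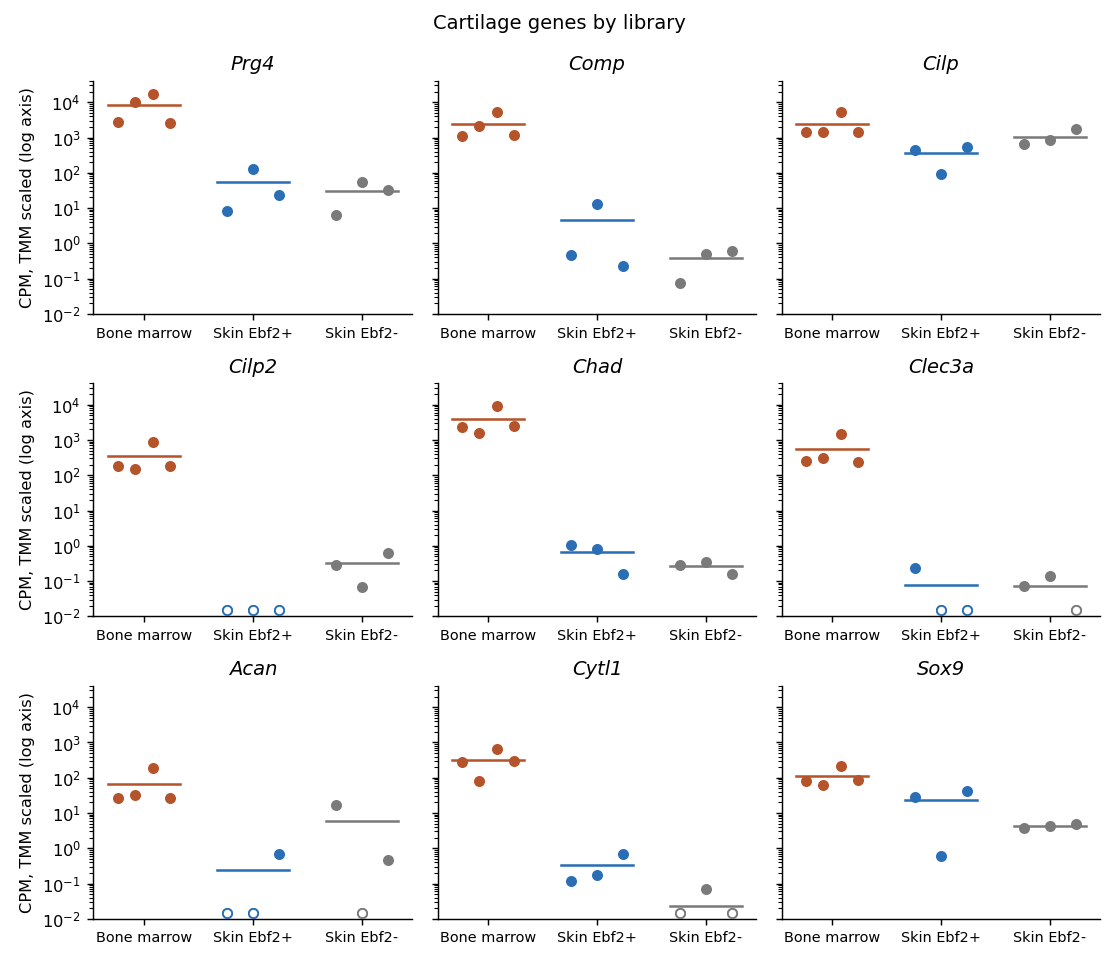
CPM of each gene in every library on a log axis, for bone marrow (4 libraries), skin Ebf2+ (3) and skin Ebf2- (3); horizontal lines are group means and open circles, drawn at the bottom, are libraries with 0 reads. Bone marrow lies above both skin groups in 8 panels, and only in the Cilp panel does a skin Ebf2- library (1705 CPM) exceed the lowest marrow library (1399 CPM).

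Chad (chr11:94565047-94569127, plus strand, GRCm38.p6) encodes chondroadherin, a small leucine-rich repeat protein of cartilage to which chondrocytes adhere. It had 2314, 1559, 9327 and 2430 CPM in bone marrow 1 to 4. In skin Ebf2+ 1 to 3 it had 1.05, 0.786 and 0.156 CPM, and in skin Ebf2- 1 to 3 it had 0.294, 0.346 and 0.157 CPM. Both skin groups were thus at a handful of reads, 20 over skin Ebf2+ and 11 over skin Ebf2- cells. The mean was 3908 ± 3634 CPM in bone marrow (SD, n = 4), which was 5890 times that of skin Ebf2+ and 14724 times that of skin Ebf2- cells. With bone marrow 1 and 4 summed the mean was 4419 ± 4270 CPM (SD, n = 3). Bone marrow 3 carried much of the mean, and without it the ratios were 3167 and 7917. The gene lies inside Acsf2 on the opposite strand with 0 shared exon bases. Acsf2 itself had 11.8 to 40.7 CPM in marrow.

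Clec3a (chr8:114418034-114428133, plus strand) encodes a C-type lectin domain protein first described from cartilage. It had 247, 317, 1469 and 233 CPM in bone marrow 1 to 4. Over all skin Ebf2+ libraries 2 reads fell on it and over all skin Ebf2- libraries 3 reads. Against the pooled reads, bone marrow was 9300 times skin Ebf2+ (95% Poisson interval 2574 to 76790) and 7713 times skin Ebf2- cells (2639 to 37399). Such intervals cover counting error only, and without bone marrow 3 the ratios were 4362 and 3618.

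Comp (chr8:70373548-70382066, plus strand) encodes cartilage oligomeric matrix protein, a thrombospondin that binds collagen fibrils in cartilage, tendon and ligament. Its levels were 1128, 2081, 5386 and 1161 CPM in bone marrow 1 to 4. Skin Ebf2+ 1 to 3 had 0.466, 13.0 and 0.234 CPM, and skin Ebf2- 1 to 3 had 0.0734, 0.484 and 0.627 CPM. Skin Ebf2+ 2 held 149 of the 156 reads of its group. That library also had the highest sum of mural cell markers in the series, at 2721 CPM against 481 and 652 CPM in the other 2 skin Ebf2+ libraries, and the part of such cells in the Comp reads was not tested. The bone marrow mean was 534 times that of skin Ebf2+, or 6967 times without skin Ebf2+ 2. Against skin Ebf2- cells the ratio was 6179, and without bone marrow 3 the 2 full ratios became 319 and 3691.

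Cilp and Cilp2 encode related secreted proteins of the cartilage matrix, and their RNAs differed in skin. Cilp2 (chr8:69880366-69887392, minus strand) had 179.8, 149.7, 875 and 183 CPM in bone marrow 1 to 4. It had 0 reads in all 3 skin Ebf2+ libraries and 0.294, 0.0692 and 0.627 CPM in skin Ebf2- 1 to 3. Bone marrow was at least 3797-fold higher than skin Ebf2+ cells, taking 3 counts over the group as its floor, and 1052 times skin Ebf2- cells. Without bone marrow 3 the bound was 1869 and the ratio 518, and with skin Ebf2- 3 left out, and all marrow libraries kept, the ratio was 1912. Cilp (chr9:65265180-65280614, plus strand) had 1399, 1451, 5334 and 1435 CPM in bone marrow 1 to 4. Skin Ebf2+ 1 to 3 had 455, 90.1 and 545 CPM, and skin Ebf2- 1 to 3 had 647, 845 and 1705 CPM. Cilp was therefore abundant in all 3 groups, and 3 of the 4 marrow libraries lay below skin Ebf2- 3. The bone marrow mean was 6.62 times skin Ebf2+ and 2.26 times skin Ebf2- cells, and without bone marrow 3 these ratios were 3.93 and 1.34. With skin Ebf2- 3 left out, bone marrow and skin Ebf2- no longer overlapped, with 1399 CPM in the lowest marrow library and 845 CPM in the higher of the 2 remaining skin Ebf2- libraries.

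Prg4 (chr1:150449412-150466221, minus strand) encodes lubricin, the proteoglycan that lubricates joint surfaces and tendon sheaths. It had the most reads of the 9 genes, with 2673, 9944, 17600 and 2629 CPM in bone marrow 1 to 4. Skin Ebf2+ 1 to 3 had 8.15, 129 and 24.2 CPM, and skin Ebf2- 1 to 3 had 6.53, 53.3 and 32.97 CPM. The skin groups overlapped one another and both lay far below every marrow library. The bone marrow mean was 153 times that of skin Ebf2+ and 265 times that of skin Ebf2- cells, or 94.7 and 164 without bone marrow 3, 508 against skin Ebf2+ cells without skin Ebf2+ 2, and 416 against skin Ebf2- cells without skin Ebf2- 2. Prg4 shares 204 exon bases with Tpr on the opposite strand, and whether reads were counted by strand is unknown here. Tpr had 277 to 359 CPM in bone marrow, 46.9 to 296 CPM among skin Ebf2+ and 56.3 to 283 CPM among skin Ebf2- libraries.

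Acan (chr7:79053226-79115099, plus strand) encodes aggrecan, the proteoglycan that gives cartilage its swelling pressure. It was low even in marrow, with 25.9, 31.6, 191 and 26.1 CPM in bone marrow 1 to 4. In skin Ebf2+ 1 to 3 it had 0, 0 and 0.703 CPM, and in skin Ebf2- 1 to 3 it had 16.8, 0 and 0.470 CPM. All 9 reads of skin Ebf2+ came from skin Ebf2+ 3. A single library, skin Ebf2- 1, held 229 of the 235 reads of its group and came close to the lowest marrow library. Ratios of bone marrow to skin Ebf2+ and skin Ebf2- cells were 293 and 11.9, and became 119 and 4.83 without bone marrow 3. Without skin Ebf2+ 3 bone marrow was at least 459-fold higher than skin Ebf2+ cells, and without skin Ebf2- 1 it was 292 times skin Ebf2- cells.

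Cytl1 (chr5:37735519-37739820, plus strand) encodes a small secreted protein, cytokine-like 1, known from chondrocytes. It had 286, 82.5, 636 and 295 CPM in bone marrow 1 to 4. Skin Ebf2+ 1 to 3 had 0.116, 0.175 and 0.703 CPM, and 1 read fell on it over all skin Ebf2- libraries. Skin Ebf2+ 3 held 9 of the 12 reads of its group. Against skin Ebf2+ the ratio was 980, or 667 without bone marrow 3. Without skin Ebf2+ 3 it was 2171 on the 3 remaining reads (95% Poisson interval 743 to 10526). Against the pooled skin Ebf2- reads it was 13274 (95% Poisson interval 2382 to 524301), or 9035 without bone marrow 3. Of the 9 genes it was the one in which bone marrow 2 lay furthest below bone marrow 1.

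Sox9 (chr11:112782210-112787757, plus strand), the only transcription factor gene among the 9, is also known from hair follicles. It had 80.7, 61.2, 220.2 and 84.6 CPM in bone marrow 1 to 4. Skin Ebf2+ 1 to 3 had 28.5, 0.611 and 40.9 CPM, and skin Ebf2- 1 to 3 had 3.82, 4.15 and 4.78 CPM. Skin Ebf2+ cells were split, with 2 libraries above and 1 below all skin Ebf2- libraries. The summed keratinocyte markers (6 of 6 measured) were 40.4, 20.4 and 883 CPM in skin Ebf2+ 1 to 3 and 658, 177 and 471 CPM in skin Ebf2- 1 to 3. Within skin Ebf2+ cells Sox9 and this sum had the same order of libraries, and within skin Ebf2- cells they did not. In bone marrow the sum was 1.05 to 5.54 CPM, and the part of keratinocytes in the Sox9 reads of skin was not tested. Bone marrow had 4.79 times the mean of skin Ebf2+ and 26.3 times that of skin Ebf2- cells, or 3.24 and 17.8 without bone marrow 3, and 7.67 against skin Ebf2+ without skin Ebf2+ 3.

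Summing bone marrow 1 and 4 into 1 library multiplied the 18 ratios and bounds by 1.04 to 1.23. Leaving out bone marrow 3 multiplied them by 0.406 to 0.681.

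Levels of different genes can be compared per exon length. On this scale (CPM per kb of exon, marrow mean ± SD, n = 4) Chad had 2326 ± 2163, Prg4 1919 ± 1668, Clec3a 958 ± 1020, Comp 822 ± 679, Cilp 566 ± 459, Cytl1 308 ± 217, Cilp2 80.4 ± 81.7, Sox9 27.0 ± 17.7 and Acan 9.19 ± 10.9. Chad and Prg4 ranked 5 and 6 among 13587 genes with a length, Clec3a 24, Comp 33, Cilp 50 and Cytl1 93. Aggrecan RNA, by contrast, ranked 3972 and Sox9 ranked 1399. Ranges over the marrow libraries overlapped for all 8 neighbouring pairs of this order, and 6 of the 8 gaps were smaller than the larger SD of the pair. The exceptions were Cytl1 over Cilp2 and Sox9 over Acan. Within single libraries the order was steadier. The order of all 9 genes was the same in bone marrow 1, 3 and 4. In bone marrow 2 Prg4 stood first and Chad second, and Comp stood above Clec3a. Comp also stood above Clec3a when the longest transcript gave the length. In skin the order was another one: Cilp came first in both skin groups, with 85.4 ± 56.6 in skin Ebf2+ and 251 ± 132 in skin Ebf2- cells (n = 3 each), followed by Prg4 and Sox9.

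**Figure D2:**
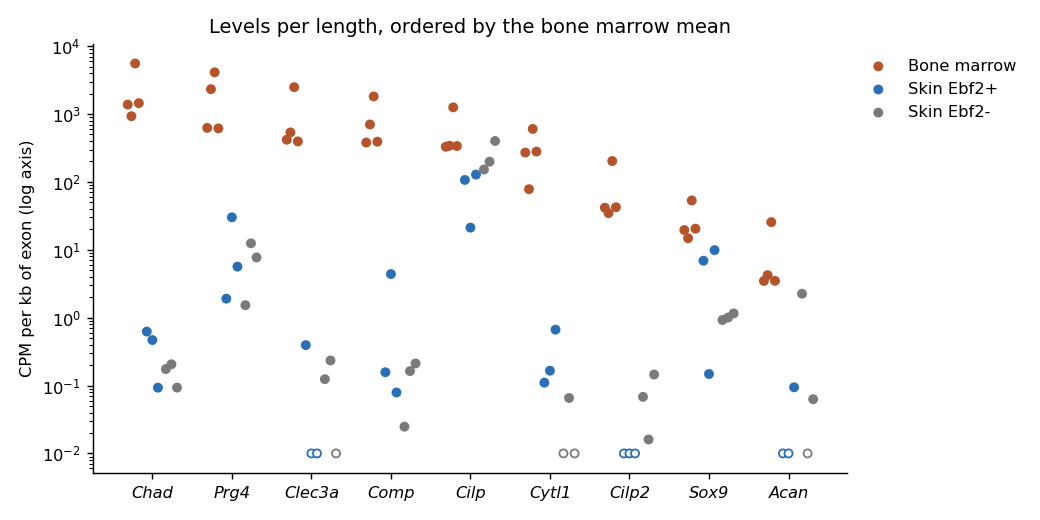
CPM per kb of exon on a log axis for each gene, ordered by the bone marrow mean, with 1 point per library for bone marrow (4), skin Ebf2+ (3) and skin Ebf2- (3); open circles at the bottom are libraries with 0 reads. Marrow means run from 2326 for Chad to 9.19 for Acan, while Cilp is the highest of the 9 genes in both skin groups.

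All 9 genes were highest in bone marrow 3, as were 30.8% of the 8698 genes with a marrow mean of at least 10 CPM. For 8 of the 9, bone marrow 3 was at least 2-fold above every other marrow library, against 5.85% of those 8698 genes, and Prg4 was 1.77-fold above bone marrow 2. The genes were selected on their marrow levels, which bone marrow 3 raises, so the count is not independent of that choice. The excess over the second library ranged up to 6.05-fold in Acan, 4.79-fold in Cilp2 and 4.64-fold in Clec3a. Bone marrow 2 had a pattern of its own. Relative to bone marrow 1 it had 3.72 times the Prg4 and 1.84 times the Comp, but 0.674 times the Chad and 0.289 times the Cytl1. The ratio of Prg4 to Chad per kb was thus 0.453, 2.50, 0.741 and 0.425 in bone marrow 1 to 4. Bone marrow 4, the library not labelled as from the earlier study, stayed within 0.945 to 1.05 times bone marrow 1 for all 9 genes.

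**Figure D3:**
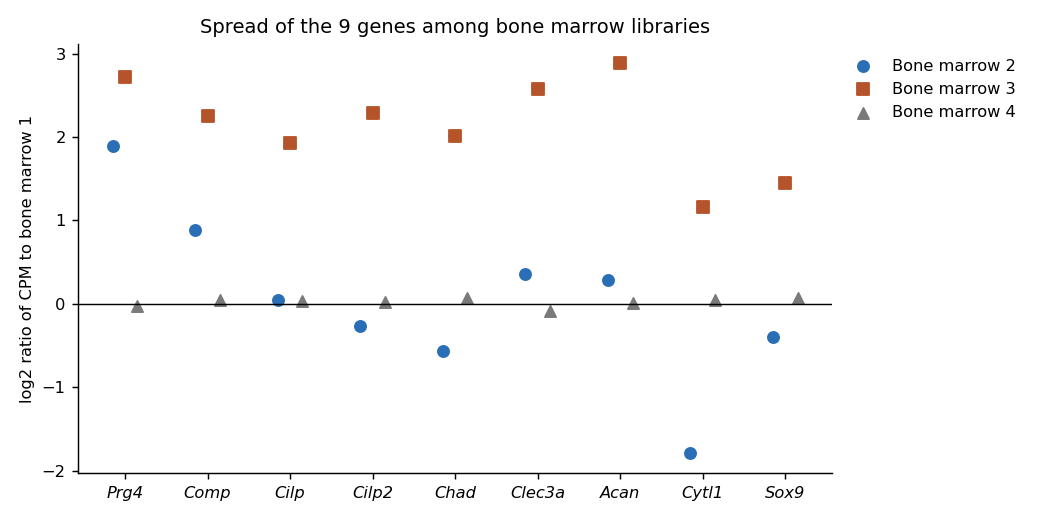
log2 ratio of the CPM of bone marrow 2 (circles), 3 (squares) and 4 (triangles) to bone marrow 1 for each of the 9 genes, with the line at 0 marking equal levels. Bone marrow 3 is above the line for all 9 genes, bone marrow 4 lies on it, and bone marrow 2 ranges from 3.72 times bone marrow 1 in Prg4 to 0.289 times in Cytl1.

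Sums of other markers also differed among the marrow libraries, and only some were highest in bone marrow 3. The summed chondrocyte markers (7 of 9 measured) were 44.2, 55.3, 611 and 11.6 CPM in bone marrow 1 to 4, against 0.116 to 41.7 CPM among skin Ebf2+ and 1.32 to 6.58 CPM among skin Ebf2- libraries. Col2a1, the main fibrillar collagen of cartilage, had 35.7, 26.3, 403 and 8.90 CPM in bone marrow 1 to 4, and Hapln1, which links aggrecan to hyaluronan, had 2.30, 5.28, 72.2 and 0.500 CPM. In bone marrow 4 Col9a1, Col9a2 and Col9a3 were at 0, while Chad stood at 2430 CPM there. Summed tendon and ligament markers (5 of 5 measured) were 1979, 2420, 4755 and 2021 CPM in bone marrow 1 to 4, most of it Thbs4. They were 180.4 to 787 CPM among skin Ebf2+ and 289.9 to 494.5 CPM among skin Ebf2- libraries. Of these 5 markers 4 were highest in bone marrow 3, but only Thbs4 was at least 2-fold above every other marrow library. Tnmd was lowest in bone marrow 3 and nearly level, with 75.1, 76.4, 72.6 and 72.9 CPM in bone marrow 1 to 4. The sum of marrow stroma markers (6 of 6 measured) was lowest in bone marrow 3, with 2296, 2381, 821 and 2167 CPM. It was 806 to 1521 CPM among skin Ebf2+ and 347 to 1370 CPM among skin Ebf2- libraries, so bone marrow 3 lay within both ranges. Outside bone marrow 3, most of the marrow sum was Cxcl12, the niche chemokine, with 1613, 1737, 258 and 1539 CPM in bone marrow 1 to 4. Of the 5 markers with a marrow mean of at least 10 CPM, 4 were lowest in bone marrow 3. Besides Cxcl12 these were Kitl (56.1, 56.2, 9.82 and 49.3 CPM), Ebf3 (191, 166, 76.4 and 185 CPM) and the leptin receptor gene Lepr. Lepr differed least, with 403, 339, 325 and 367 CPM. Adipoq, the marker below 10 CPM, was lowest there too, at 0.180 CPM. Foxc1, a transcription factor gene of the marrow niche, was instead highest in bone marrow 3, with 23.1, 74.8, 151 and 21.9 CPM. Osteoblast and osteocyte markers (6 of 6 measured) summed to 181.9 to 336 CPM over the marrow libraries, with bone marrow 2 highest. The sum was at most 25.6 CPM among skin Ebf2+ and 2.90 CPM among skin Ebf2- libraries. Its markers differed in order: Phex had 127, 96.3, 28.8 and 120 CPM in bone marrow 1 to 4, and Ibsp 49.3, 105, 222 and 43.5 CPM. Bglap, Bglap2 and Sp7 were highest in bone marrow 2. Dmp1 had at most 1.77 CPM in marrow, below the 21.3, 25.5 and 2.11 CPM of skin Ebf2+ 1 to 3. The part of any of these cell types in the 9 genes was not tested. Col2a1, Hapln1, Tnmd, Cxcl12, Lepr, Foxc1 and the Col9 genes were named here after their values were seen. The same holds for Kitl, Ebf3, Adipoq, Phex, Sp7, Bglap, Bglap2 and Dmp1.

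**Figure D4:**
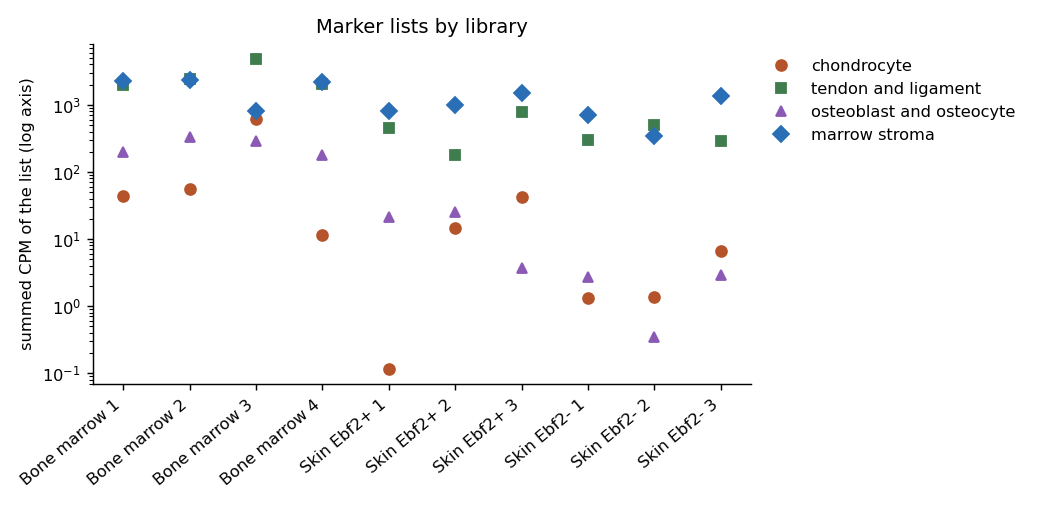
Summed CPM of chondrocyte, tendon and ligament, osteoblast and osteocyte, and marrow stroma markers in each library, on a log axis. Bone marrow 3 has the highest chondrocyte sum (611 CPM) and the lowest marrow stroma sum of the bone marrow libraries (821 CPM).

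The comparison of skin Ebf2+ with skin Ebf2- cells did not enter the choice of the genes. No difference passed edgeR's quasi-likelihood test there, for these genes or any other: 0 of 13477 genes had a Benjamini-Hochberg adjusted p under 0.05 (0%), while 343 had an unadjusted p under 0.05. DESeq2 called 116 genes, limma-voom 0, and edgeR blocked on replicate number 8, and none of these calls was one of the 9 genes. Only Cilp, Prg4 and Sox9 passed the filter on low counts, and the other 6 genes were too low in skin for it. Fitted without the filter, 0 genes passed. Cilp averaged 363 ± 241 CPM among skin Ebf2+ and 1065 ± 562 CPM among skin Ebf2- libraries (SD, n = 3 each), and every skin Ebf2+ library lay below every skin Ebf2- library, as for 3.7% of all genes. Its log2 fold change of -1.55 ± 0.77 (SE) did not pass (edgeR unadjusted p = 0.0718, adjusted p = 0.99986). Sox9 averaged 23.3 ± 20.6 CPM among skin Ebf2+ and 4.25 ± 0.487 CPM among skin Ebf2- libraries, with a log2 fold change of 2.45 ± 1.29 that did not pass either (edgeR unadjusted p = 0.0886). Prg4 averaged 53.7 ± 65.5 CPM among skin Ebf2+ and 30.9 ± 23.5 CPM among skin Ebf2- libraries, and its log2 fold change of 0.80 ± 1.06 became -0.996 when skin Ebf2+ 2 was left out. None of the 3 genes had every skin Ebf2+ library above every skin Ebf2- library, as 2.98% of all genes did. The 2 skin libraries numbered 3 stood apart in their share of counts on the ribosomal RNA gene Rn45s, at 0.593 and 0.170% against 6.34 to 12.5% in the other skin libraries. Without both of them the log2 fold changes were -1.46 for Cilp, 1.86 for Sox9 and 1.19 for Prg4, and none passed. Blocked on replicate number, with all 6 skin libraries, they were -1.78 for Cilp, 1.60 for Sox9 and 0.379 for Prg4. None passed there either, and Cilp had an edgeR unadjusted p = 0.0100 and adjusted p = 0.850.

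Other cartilage genes were taken from textbook lists of 52 genes in 5 groups, of which 44 were measured and 43 tested. The lists were drawn up with earlier results of these data known, so their calls cannot be taken as independent of those results. In the edgeR fit of all 10 libraries, 4 of the 43 were higher and 1 was lower in bone marrow than in skin Ebf2+ cells, and 38 did not pass. Of all 14520 genes tested, 0.358% were called higher and 0.565% lower. Against skin Ebf2- cells 4 were higher, 0 lower and 39 did not pass, where 0.337% of all genes were called higher and 0.393% lower. Both comparisons share the marrow libraries. The median log2 fold change of the 43 was 1.09 over skin Ebf2+ and 2.52 over skin Ebf2- cells, against -0.09 and -0.06 over all genes. Replacing the genes with 0 reads in a skin group (4 and 3 of the 43) by their lower bounds left both medians as they were. Over all genes and both directions 134 (0.923%) and 106 (0.73%) were called, and 67 and 69 once replicate number entered as a block. That block joined marrow and skin libraries by number alone, although they came from mice of different strains. Bone marrow 4 had no skin library of its number, so it did not inform the blocked comparison.

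The 4 higher genes were the same in both comparisons, and a pair of them are matrix proteins. Fmod encodes fibromodulin, a leucine-rich proteoglycan that shapes collagen fibrils, and had 1284, 1176, 3737 and 1323 CPM in bone marrow 1 to 4. It had 14.6, 2.97 and 79.9 CPM in skin Ebf2+ 1 to 3 and 13.4, 5.88 and 20.5 CPM in skin Ebf2- 1 to 3. Its log2 fold changes were 5.85 ± 1.10 over skin Ebf2+ (edgeR adjusted p = 0.0314) and 7.15 ± 1.18 over skin Ebf2- (adjusted p = 0.0143). The ratio of mean CPM over skin Ebf2+ was 57.9, or 215 without skin Ebf2+ 3. Prelp, a related proteoglycan that anchors matrix to basement membranes, had 4708, 3531, 14369 and 4898 CPM in bone marrow 1 to 4. It was abundant in skin too, with 425 to 837 CPM among skin Ebf2+ and 478 to 818 CPM among skin Ebf2- libraries. Its log2 fold changes were 3.31 ± 0.63 over skin Ebf2+ (edgeR adjusted p = 0.0330) and 3.39 ± 0.63 over skin Ebf2- (adjusted p = 0.0319), and in the fit with the replicate block its adjusted p was 0.0930 and 0.0814. The ratios of mean CPM were 9.89 and 10.4, or 6.30 and 6.65 without bone marrow 3.

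The other two higher genes belong to late, hypertrophic cartilage and to bone. Mmp13 encodes a collagenase that clears cartilage matrix, and had 81.8, 422, 197 and 73.2 CPM in bone marrow 1 to 4. It had 0 reads in skin Ebf2+ cells, so marrow was at least 2120-fold higher (edgeR adjusted p = 0.00246), and 2 reads in skin Ebf2- cells, a ratio of 3955 (95% Poisson interval 1095 to 32659; edgeR adjusted p = 0.00336). Without bone marrow 2 the bound was 1285 and the ratio 2398. Ibsp encodes bone sialoprotein and had 49.3, 105, 222 and 43.5 CPM in bone marrow 1 to 4. With 0 reads in skin Ebf2+ and 21 in skin Ebf2- cells, it was at least 1150-fold higher than the first (edgeR adjusted p = 0.0107) and 204 times the second (adjusted p = 0.0274). Without bone marrow 3 the bound was 723 and the ratio 128, and without skin Ebf2- 1 the ratio was 1430 on 2 reads (95% Poisson interval 396 to 11809). Adamts4, an aggrecan-cleaving protease, was the only lower gene, with 7.30, 23.4, 14.9 and 6.30 CPM in bone marrow 1 to 4 and 178, 328 and 66.4 CPM in skin Ebf2+ 1 to 3. Its log2 fold change over skin Ebf2+ was -3.88 ± 0.65 (edgeR adjusted p = 0.0161, and 0.0560 with the replicate block), and over skin Ebf2- it was -1.36 and did not pass (adjusted p = 0.393).

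Single libraries decided much of these counts. Over skin Ebf2+ the 4 higher genes became 2 when bone marrow 1, bone marrow 3, skin Ebf2+ 1 or skin Ebf2- 1 was left out. Over skin Ebf2- cells they became 2 without bone marrow 3, skin Ebf2- 1 or skin Ebf2- 3, and 1 without skin Ebf2- 2. With bone marrow 1 and 4 summed, 3 genes were higher in either comparison, and Prelp no longer passed (edgeR adjusted p = 0.0573 and 0.0575), nor did Adamts4 (adjusted p = 0.0559). With both of these libraries left out Mmp13 alone of the 4 passed.

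The 7 cartilage collagens all had positive log2 fold changes in both comparisons, with medians of 2.21 over skin Ebf2+ and 4.18 over skin Ebf2- cells. None of the 7 passed in either comparison. Col11a1, the one with the highest level, had 114, 148, 309 and 105 CPM in bone marrow 1 to 4, 3.38 to 100.8 CPM among skin Ebf2+ and 0.692 to 49.9 CPM among skin Ebf2- libraries. Of 9 chondrocyte transcription factor genes 0 passed, and Trps1, which acts in growth plate chondrocytes, had 206 to 423 CPM in bone marrow, 7.68 to 109 CPM among skin Ebf2+ and 15.6 to 36.3 CPM among skin Ebf2- libraries. Of 9 growth plate and joint signalling genes 0 passed. Chrdl1, an extracellular antagonist of BMP ligands, had 40.5 to 137 CPM in bone marrow, below the 216 to 366 CPM of skin Ebf2+ cells and overlapping the 45.4 to 226 CPM of skin Ebf2- cells. Of 7 measured relatives of the 9 genes by protein family 0 passed. Thbs4, a tendon thrombospondin of the same family as Comp, had 1795, 2189, 4442 and 1841 CPM in bone marrow 1 to 4, 157 to 780.5 CPM among skin Ebf2+ and 230 to 473 CPM among skin Ebf2- libraries. Bone marrow 3 was at least 2-fold above every other marrow library in 11 of the 33 other cartilage genes with a marrow mean of at least 10 CPM, among them 3 of 4 collagens, 5 of 8 matrix genes and 0 of 7 signalling genes. The share over all genes was 5.85%.

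**Figure D5:**
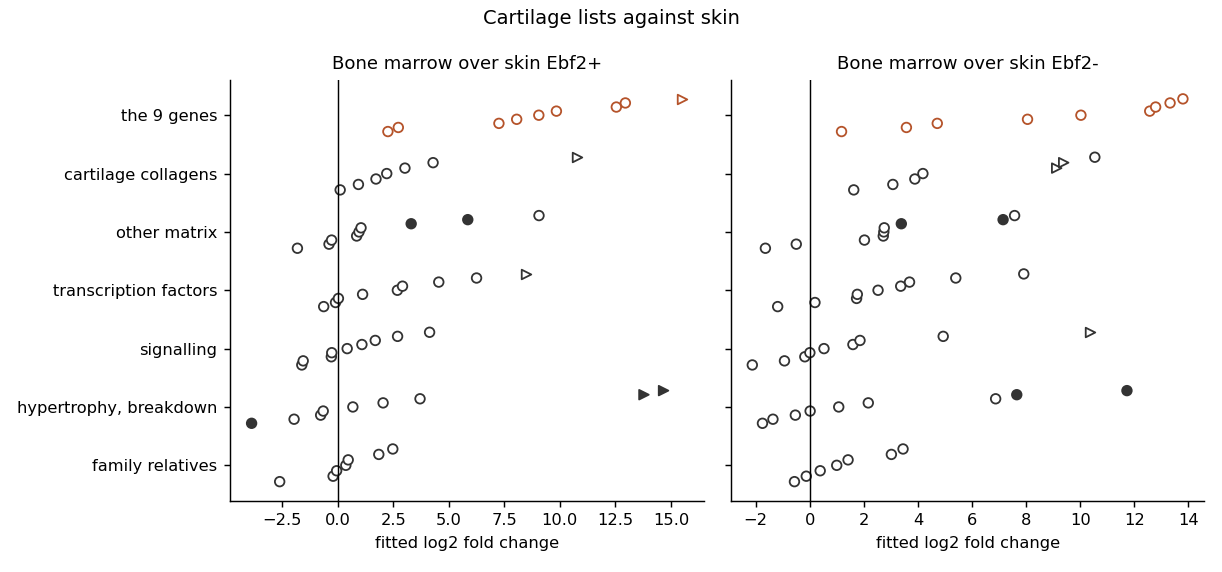
Fitted log2 fold changes of bone marrow over skin Ebf2+ (left) and over skin Ebf2- (right), 1 point per gene and 1 row per list. Filled points passed edgeR's test, triangles had 0 reads in the skin group, so that their fitted position depends on the prior count, and the 9 genes (top row) are shown without calls. All 9 lie right of 0, as do 30 of 43 (left) and 34 of 43 (right) of the other cartilage genes.

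The genes whose levels over the 10 libraries were most like those of Chad, Prg4 and Sox9 were found by the root mean square distance of mean-centred log2 CPM. For Chad the nearest of all genes was another of the 9, Clec3a, at 0.906 log2 units. The nearest outside the 9 were Mmp13 (1.73), Hoxc10, Mab21l2, Tbx4 and Hoxa11 (2.34), where the median over all genes was 6.31. All 5 had at most 0.157 CPM in every skin library. The nearest to Prg4 were Cemip (1.18), Tbx4, a gene without a symbol, Bglap and Itih2 (1.51), with a median of 4.23 over all genes. For Prg4, 21 genes were nearer than Cytl1, the nearest of the 9, at 1.92. For Sox9 they were Muc1 (0.925), Pkn3, Zfp365, Shroom3 and Adarb1 (1.07), with a median of 2.72, and 235 genes were nearer than Cilp, the nearest of the 9, at 1.73. These distances run over all 10 libraries and so include the difference between marrow and skin.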

How the data were processed

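RNA was measured in 10 libraries of sorted mouse cells. Per the labels' protocols, the RNA was turned into cDNA by SMART-Seq v4, tagged with Nextera XT and read from 1 end over 75 bp. The tools were STAR 2.6.1d, featureCounts, DESeq2, FastQC 0.11.8 and MultiQC 1.7, per the submitters' processing notes. Alignment was to GRCm38 with counting per Entrez gene, per the file headers. The deposited values used here are raw counts, 1 column per library, for 14995 genes, of which each had at least 21 counts, so a filter had been applied that the sources used here do not state. The authors' 10 normalized columns were not used. Columns were tied to samples by the number after S in their names, a link the labels do not state.

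The 9 genes and all lists were chosen with earlier results of these data known. Tests used edgeR 4.0.16 under R 4.3.3 (quasi-likelihood test, TMM scaling, filterByExpr, Benjamini-Hochberg over all genes tested, two-sided, adjusted p of 0.05). Bone marrow was compared with each skin group in a fit of all 10 libraries (14520 genes), and the skin groups in a fit of the 6 skin libraries (13477 genes). A standard error is the size of the log2 fold change over the square root of F. Levels are CPM with TMM scaling, and lengths are exon unions of GENCODE vM21. Log2 CPM for distances used a prior count of 2. Folds against 0 reads use a floor of 3 counts over the group, and intervals and floors cover counting error only, since amplified reads are not independent molecules. Named list genes were those that passed, at most 4 per list, or the highest in marrow where none passed. The fits were also run on simulated data, and nothing is read from that run for the calls given here.

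Deviations from group means correlated between skin libraries of equal number (r = 0.192, 0.235 and 0.624), each above 0.1. The labels do not say that a number marks a mouse. The main skin test was unpaired, and the numbers were taken as pairs only in the alternative with the replicate block. Libraries 1 and 2 of unequal number correlated nearly as well (r = 0.156 and 0.159), while number 3 with 1 or 2 gave -0.286 to -0.399, so the data set number 3 apart and separate 1 from 2 poorly. Alternatives were other scalings, filters, tools (DESeq2 1.42.0, limma-voom 3.58.1), the replicate block, a batch term for the earlier study, and leaving out libraries.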

Additional observations from a re-analysis of the deposited data

Results flagged for a closer look

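Within the 4 bone marrow libraries, bone marrow 3 stood far above the others in 6 of the 9 genes. The gap to the next library, divided by the range of the group, was 0.888 for Chad, 0.933 for Clec3a, 0.954 for Cilp2, 0.987 for Cilp, 0.853 for Sox9 and 0.966 for Acan. Each is above Dixon's 95% critical value for 4 independent samples, which is used here only as the rule for listing a gene. It gives no test here, since the genes were selected on their marrow levels, which bone marrow 3 raises. Chance flags about 1 in 20 groups of independent samples, 9 groups were examined, and the genes are not independent of one another. Bone marrow 1 and 4 nearly coincide, which narrows the spread of the other libraries, so 4 independent samples cannot be assumed. In bone marrow 3 the chondrocyte markers summed to 611 CPM and the marrow stroma markers to 821 CPM, and their part in the levels was not tested.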

How the results depend on the processing

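Of the 9 genes, 8 were above all skin libraries with either other scaling and with bone marrow 1 and 4 summed or left out, and 8 to 9 with single libraries left out. The genes were listed for this order, so nothing is read from these counts. With TMM scaling and all libraries 4.27% of all genes had it, and the share under the alternatives was not computed. In the skin comparison 0 of the 9 genes passed in any of the 15 alternatives. Their log2 fold changes moved by more than the replicate spread in 16 of 207 values over skin Ebf2+ and 11 of 207 over skin Ebf2-, and none changed sign there. Library size alone shifted the median of all genes to -0.20 over skin Ebf2+ and -0.23 over skin Ebf2-. Genes called over skin Ebf2+ (134) were 1105 with DESeq2, 223 with limma-voom, 67 with the replicate block, 76 in a fit of the 2 groups, 51 with bone marrow 1 and 4 summed or with bone marrow 1 to 3 alone, 8 with bone marrow 1 and 4 left out, 7 with a batch term and 1 with bone marrow 4 alone. Over skin Ebf2- (106) they were 796, 293, 69 with the block, 262, 47 and 46, 13, 9 and 2 in the same order. Other cartilage genes called higher (4 and 4) were 11 and 13 with DESeq2, 2 and 7 in the fit of the 2 groups, 1 and 1 with bone marrow 1 and 4 left out or with the batch term, and 0 and 0 with bone marrow 4 alone. Leaving out single libraries gave 44 to 200 and 34 to 190 genes called, and 2 to 5 and 1 to 6 other cartilage genes. Between the skin groups DESeq2 called 116 genes and the replicate block 8, and no single omission called any (0 to 0). The cause of these shifts was not tested, except that fewer libraries were in the fits that left some out. The block, which joined marrow and skin libraries by number alone, changed the calls of Prelp and Adamts4 among the named genes. A total of 6 of the 9 genes had too few reads in skin for a comparison between skin groups.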

Other observations

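Bone marrow 1 and 4 agreed within 0.945 to 1.05 times for each of the 9 genes but not for the chondrocyte markers, a difference noticed after the values were seen. These markers summed to 44.2 CPM in bone marrow 1 and 11.6 CPM in bone marrow 4, and Col2a1 had 35.7 and 8.90 CPM. The median of bone marrow 4 over bone marrow 1 across genes with a marrow mean of at least 10 CPM was 0.975. Tbx4, a limb transcription factor, and the posterior Hox genes Hoxc10 and Hoxa11 were present in every marrow library, at 20.1 to 57.1, 56.9 to 78.3 and 22.8 to 50.2 CPM, and had at most 1 read in any skin library.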
